A study of Mus musculus with 9 samples.

Results

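The comparison described here set GT1-7-OX1 cells treated with orexin A (OxA) for 8 h against the same cells treated for 3 h, in 3 cultures each, and asked which transcripts decayed, held or built up between the 2 times. GT1-7-OX1 is a pool of lentivirally transduced GT1-7 cells, a mouse hypothalamic line that secretes GnRH and was immortalized with SV40 T antigen under a GnRH promoter, and it carries human OX1 with a copGFP reporter. The medium of each flask was replaced with fresh, warm medium with serum and 200 nM OxA for 8 h (3 cultures), 200 nM OxA for 3 h (3 cultures), or water as vehicle for 8 h (3 cultures). Total RNA was depleted of ribosomal RNA and sequenced, and reads were counted per mouse gene. Of 9 cultures in the series, 6 entered the comparison, and the 3 vehicle cultures served to place each gene above or below the level without OxA. Of 37411 genes in the table, 15278 had enough counts in the 6 cultures to be tested, and all of these were members. Both OxA groups had their medium changed when OxA was added, so time since OxA and time since the medium change cannot be told apart between 8 h and 3 h, and no vehicle culture was collected at 3 h. Every culture was a flask of 1 transduced pool, so p-values measure the spread between these cultures. The paper states that the procedure was repeated to reach 3 cultures per condition, and the main test did not block by replicate number.

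Orexins are hypothalamic neuropeptides of arousal, feeding and reward. OX1 is a G protein-coupled receptor that acts through Gq and phospholipase C, raises intracellular calcium and activates protein kinase C and the ERK cascade. Signals of this kind first switch on immediate early genes, whose transcripts are short-lived and encode transcription factors of the FOS, JUN, EGR and NR4A families and inhibitors of the same cascade. Products of those genes act on later targets, among them genes of growth, matrix, secretion and excitability, so a comparison between an early and a late time reads which layer of such a response was present at each.

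The counts assigned to genes totalled 16217786 to 20445364 per culture at 8 h, 16487142 to 17877485 at 3 h and 17293093 to 18168541 with vehicle, and the mitochondrial ribosomal RNA mt-Rnr2 took 10.6 to 11.8% of them. Culture 1 stood somewhat apart in both OxA groups. With cultures scaled by their totals, its squared difference from the other 2 cultures of its group averaged 4.59 to 5.31 times that of counting noise over genes. This ratio was 2.60 at 8 h and 1.96 at 3 h for cultures 2 and 3, and 2.87 to 3.65 among vehicle cultures. Of 18 neuronal markers, 17 had a mean of at least 2 TPM, a level per gene length and library size, over the OxA cultures. Of the markers of other cells, 2 of 9 for astrocytes, 1 of 9 for oligodendrocytes, 4 of 10 for microglia, 1 of 8 for endothelium and 2 of 8 for fibroblasts did so, and the defining markers Aqp4 of astrocytes and Trem2 of microglia were at 0 in every culture. The summed levels of the astrocyte list were 19.4 to 20.4 TPM at 8 h, 22.8 to 22.9 at 3 h and 21.6 to 21.8 with vehicle, and those of the oligodendrocyte list 18.8 to 20.6 at 8 h, 20.9 to 23.3 at 3 h and 23.4 to 28.4 with vehicle. Those of the microglial list were 59.8 to 62.9 TPM at 8 h, 65.7 to 72.3 at 3 h and 64.1 to 69.8 with vehicle. Those of the endothelial list were also lower at 8 h with no overlap, with 6.08 to 6.18 TPM at 8 h, 8.18 to 8.80 at 3 h and 7.71 to 8.51 with vehicle, most of it from the receptor gene Kdr. The fibroblast sums overlapped, with 33.2 to 40.3 at 8 h, 34.6 to 36.0 at 3 h and 34.7 to 42.2 with vehicle. The part of these markers in the results below was not tested.

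In edgeR's quasi-likelihood test, 4277 of 15278 genes differed between 8 h and 3 h at a Benjamini-Hochberg adjusted p under 0.05, which is 28.0% of the genes tested. At 8 h, 2096 genes were higher (13.7%) and 2181 were lower (14.3%), and with upper-quartile scaling more of the called genes were higher than lower. Most of these differences were small, with a median size of 0.33 on the log2 scale. A change of 2-fold or more was found for 103 genes that were higher at 8 h (0.674%) and 182 that were lower (1.19%), and a change of 4-fold or more for 7 and 18 of them. Here the log2 fold change (log2FC) is the value at 8 h over that at 3 h, without shrinkage toward 0, and a negative one means a lower level at 8 h. A gene was called held where the 95% interval of its log2FC lay wholly within 1.5-fold in both directions, so that a held gene can also carry a small called difference. By this rule 10150 genes (66.4%) were held, and 2646 of them were also called. The groups did not overlap, with all 3 cultures of one time above all 3 of the other, for 6184 genes (40.5%).

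**Figure D1:**
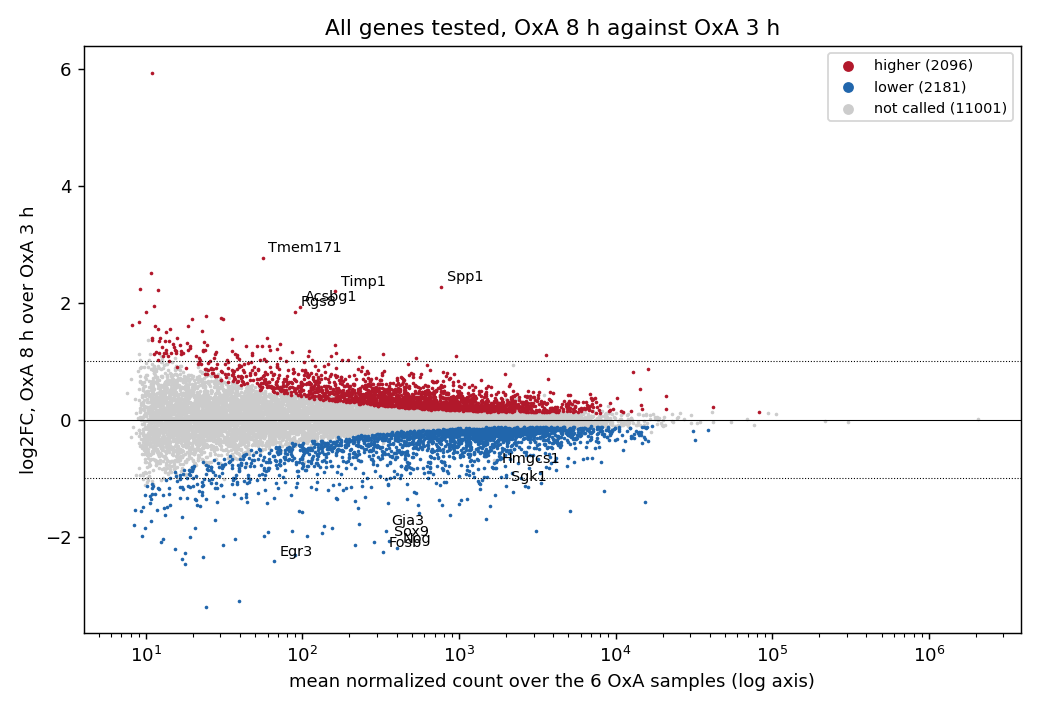
Log2FC of OxA 8 h over OxA 3 h (vertical axis) against the mean normalized count over the 6 OxA cultures (horizontal log axis) for 15278 genes, with 2096 called higher in red, 2181 called lower in blue and the rest in grey. Dotted lines mark 2-fold, and more genes lay below the lower line (182 called) than above the upper one (103 called).

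Set beside vehicle, the genes that fell and the genes that rose followed different courses. Of 2143 genes that were lower at 8 h than at 3 h and were tested in all 3 comparisons, 743 were above vehicle at 3 h and not called against it at 8 h, and 547 were above vehicle at both times. A further 508 were not called at 3 h and below vehicle at 8 h, 67 were above it at 3 h and below it at 8 h, 51 were below at both times and 227 were called at neither. Of 2075 genes that were higher at 8 h, 967 were below vehicle at 3 h and not called at 8 h, 383 were not called at 3 h and above vehicle at 8 h, 261 were below at both times, 169 above at both times, 39 below it at 3 h and above it at 8 h, and 256 were called at neither. These courses describe positions only, since the comparisons share cultures. Against vehicle, 4377 of 15407 genes were called at 8 h (28.4%, with 15.3% higher and 13.1% lower) and 5973 of 15352 at 3 h (38.9%, with 20.2% higher and 18.7% lower). Upper-quartile scaling turned the balance of directions: of the genes called against vehicle, 44.2% were then higher at 8 h, against 53.9% with TMM scaling, and 39.5% at 3 h, against 52.0%. Vehicle was collected 8 h after its medium change, so the comparison at 3 h also spans that gap.

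Lists of genes of known function were described by their counts of called members, beside 13.7% higher and 14.3% lower over all genes tested and a median log2FC of 0.01. The lists with the lowest medians were the immediate early transcription factors, the ID, HES and HEY repressors, the glucocorticoid- and serum-responsive genes and cholesterol synthesis. Some lists shared members, so their counts partly rest on the same genes. Bhlhe40 was counted with these repressors and with the clock genes. Per2 was counted with the glucocorticoid- and serum-responsive genes and the clock genes, and Errfi1 with the former and the ERK inhibitors. The lists with the largest positive medians were the interferon-stimulated genes, the RGS proteins, the cytosolic ribosomal proteins and the translation factors. Proteasome subunits and oxidative phosphorylation genes were all held, and so were all lysosome and autophagy genes and all G2/M genes, beside 66.4% of all genes tested. Counts of 2 members or fewer moved by at most 2 when a culture was left out.

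**Figure D2:**
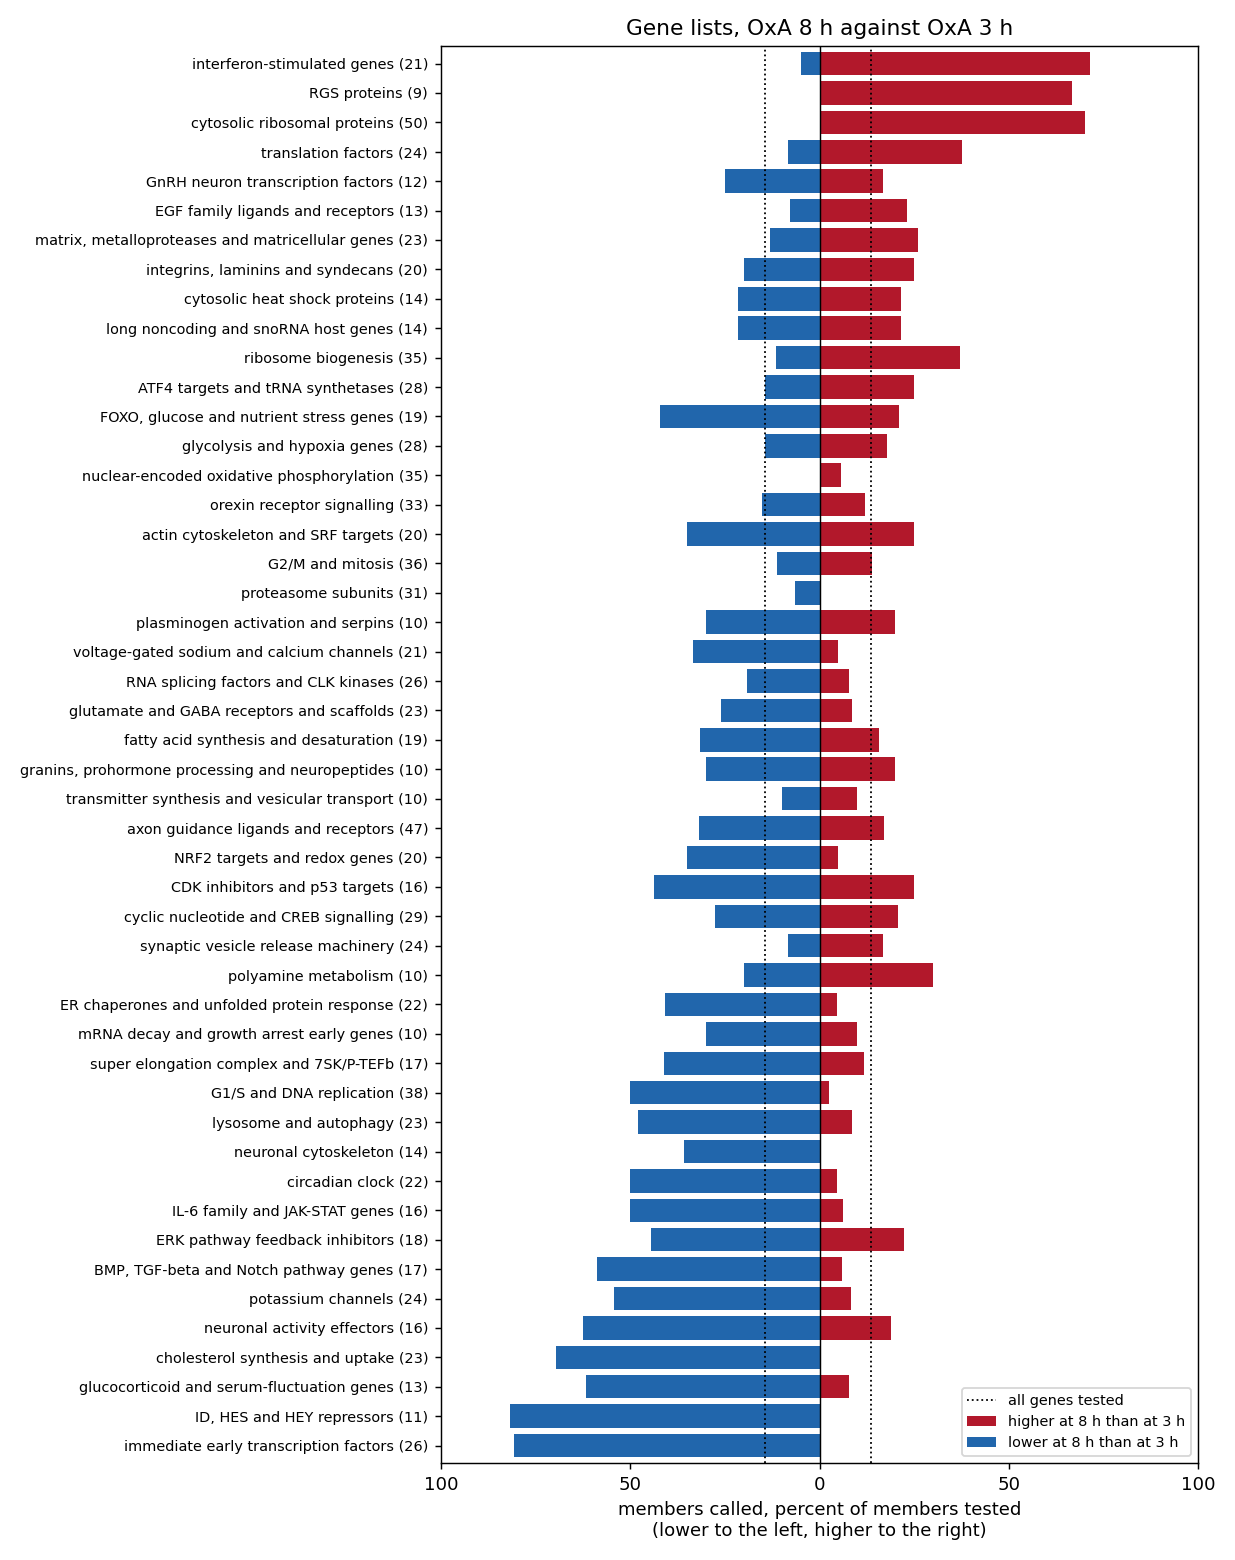
Percent of the tested members of each gene list that were called higher at OxA 8 h than at OxA 3 h (red, to the right) or lower (blue, to the left), with the number of members tested in brackets and lists ordered by their median log2FC. Dotted lines show the shares over all 15278 genes, 13.7% higher and 14.3% lower. The immediate early transcription factors (21 of 26 lower) lie at the bottom and the interferon-stimulated genes (15 of 21 higher) at the top.

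Most of the immediate early transcription factors were lower at 8 h. Of 26 members tested, 21 were lower at 8 h and 0 were higher, with a median log2FC of -0.90, and 10 fell 2-fold or more. Against vehicle, 25 of 26 were higher at 3 h and 15 of 25 at 8 h. Egr3 (chr14:70077203-70082614 on GRCm38), a zinc finger factor of the EGR family, had normalized counts of 15.9, 20.7 and 26.9 at 8 h, against 126, 109 and 99.1 at 3 h and 17.2, 6.92 and 14.8 with vehicle. Its log2FC was -2.42 (SE 0.21, adjusted p = 1.56e-08), which brought it to values that overlapped those of vehicle. Fosb (chr7:19302696-19310051), a subunit of the AP-1 dimer, had 129, 92.5 and 118 at 8 h, against 492, 622 and 514 at 3 h and 36.3, 43.5 and 67.0 with vehicle. All 3 cultures at 8 h lay below every culture at 3 h and above every vehicle culture, and the fall was 2.27 (SE 0.12, adjusted p = 6.90e-12). The orphan nuclear receptor gene Nr4a3 had 15.9, 12.6 and 15.7 at 8 h and 63.9, 48.0 and 68.4 at 3 h, a log2FC of -2.04 (SE 0.25, adjusted p = 2.63e-06), while its relative Nr4a1 fell less, with 159, 119 and 157 at 8 h and 382, 358 and 345 at 3 h against 29.6, 35.6 and 54.2 with vehicle (log2FC -1.33, SE 0.11, adjusted p = 1.00e-08).

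The members of 1 family did not fall alike. Fos, the partner of JUN in AP-1, fell by 0.66 (SE 0.09, adjusted p = 2.09e-05), with 534, 506 and 686 at 8 h, against 915, 872 and 921 at 3 h and 250.1, 333 and 389 with vehicle, and Fosl2 by 0.73 (adjusted p = 7.44e-11). Junb fell by 1.19 (SE 0.10, adjusted p = 6.55e-06), whereas Jund had 2015, 1716 and 1941 at 8 h and 2098, 1909 and 1883 at 3 h and was held, with an interval of its log2FC of -0.18 to 0.07. Among the EGR genes, Egr1 fell by 0.89 and Egr2 by 1.14 (adjusted p = 1.08e-08 and 3.71e-05), and both remained above vehicle at 8 h, by 0.81 and 1.39. Differences between these falls were not themselves tested. Myc, which drives growth and ribosome production, fell by 0.45 (SE 0.08, adjusted p = 6.02e-04) and was at 871, 792 and 853 at 8 h, against 1272, 1200 and 969 at 3 h and 202, 197 and 271 with vehicle, so that most of its distance from vehicle remained. Of the Krüppel-like factors, Klf10, Klf4, Klf9 and Klf16 fell by 1.08, 0.92, 0.82 and 0.63, and Klf9 stood at its vehicle level at 8 h, with 1201, 1231 and 1227 at 8 h and 1233, 1229 and 1213 with vehicle. Klf11 went the other way, with 705, 682 and 702 at 8 h against 507, 505 and 533 at 3 h and 803, 822 and 951 with vehicle (log2FC 0.43, SE 0.07, adjusted p = 3.73e-05).

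Serum response factor and cyclic AMP signalling act on such genes through short promoter elements, and the sequences that hold them are shown for Srf and Maff. In the 250 bases before the start of a gene, RefSeq promoters (build GRCm38.p6, 20 of 26 members matched) held a CArG box, the site of serum response factor, for 2 members, Srf and Egr2, and the cyclic AMP response element tgacgtca for 1 member, Maff. The shares over all 10189 genes tested with a promoter in the table were 1.49% and 3.12%. In the lines below, capitals mark the CArG box and the cyclic AMP response element on either strand, and Srf holds a pair of CArG boxes.
Srf, chr17:46556175-46556284, minus strand: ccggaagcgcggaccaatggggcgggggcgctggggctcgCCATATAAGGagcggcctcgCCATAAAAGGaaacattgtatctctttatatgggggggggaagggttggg
Maff, chr15:79347451-79347519, plus strand: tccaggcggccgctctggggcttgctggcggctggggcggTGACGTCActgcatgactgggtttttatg
Srf, which encodes serum response factor itself, had 1575, 1320 and 1648 at 8 h, against 2945, 2881 and 2748 at 3 h and 1249, 1100 and 1404 with vehicle (log2FC -0.92, SE 0.06, adjusted p = 5.40e-09). Maff, a small basic leucine zipper factor, had 667, 549.7 and 680.4 at 8 h, against 1802, 1482 and 1564 at 3 h and 132, 189.9 and 273 with vehicle (log2FC -1.36, SE 0.08, adjusted p = 1.29e-08). Both genes were chosen after their values were seen, and in each the 3 cultures at 8 h lay below the 3 at 3 h.

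Inhibitors of the ERK cascade split into members that fell and members that rose. Of 18 tested, 8 were lower and 4 were higher at 8 h, with a median log2FC of -0.28. Dusp2 (chr2:127336159-127338376), a nuclear phosphatase that inactivates ERK, had 30.9, 18.9 and 42.5 at 8 h, against 126, 159 and 162 at 3 h and 15.3, 17.8 and 14.8 with vehicle, a fall of 2.31 (SE 0.21, adjusted p = 3.54e-08). Its cultures at 8 h were all below those at 3 h and all above those with vehicle. The related phosphatase gene Dusp5 fell by 1.64 (SE 0.11, adjusted p = 1.67e-06) and Errfi1, whose product binds and blocks the EGF receptor kinase, by 1.57 (SE 0.10, adjusted p = 9.28e-06). Errfi1 was nonetheless at 2716, 2233 and 2811 at 8 h, against 8410, 7669 and 6922 at 3 h and 498, 489 and 609 with vehicle, a log2FC of 2.28 above vehicle. Of the members that rose, Spry1, an inhibitor of receptor tyrosine kinase signalling, had 288, 307 and 344 at 8 h, against 150.3, 177 and 177 at 3 h and 218, 223 and 256 with vehicle (log2FC 0.89, SE 0.11, adjusted p = 1.60e-06). Lrig1, which promotes degradation of EGF receptors, rose by 0.57 (SE 0.05, adjusted p = 6.31e-08) and Spred3 by 0.44 (SE 0.10, adjusted p = 0.00218). Spry1 and Lrig1 were called below vehicle at 3 h and above it at 8 h. Spred1, a further inhibitor of RAF activation, was held at 4009, 4400 and 4642 at 8 h and 4566, 4506 and 4416 at 3 h, above 2752, 2618 and 3372 with vehicle.

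The Dusp2 promoter held 1 match to the EGR site gcgngggcg, which is shown because Dusp2 had the largest fall of the list, and capitals mark the match.
Dusp2, chr2:127336021-127336109, plus strand: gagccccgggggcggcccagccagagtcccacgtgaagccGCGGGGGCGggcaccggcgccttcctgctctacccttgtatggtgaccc
Of 16 members with a promoter in the table, 2 held this motif, the other being Dusp16, which was held between the times with a log2FC of 0.00. Over all genes tested the share was 10.4%, and it was 16.4% among genes called lower at 8 h and 10.4% among those called higher, but 11.2% among the genes lower 2-fold, to which Dusp2 belongs. A match is a description of the letters and was not tested as a site.

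Of 16 effectors of neuronal activity tested, 10 were lower and 3 higher at 8 h, and 3 were not called. Arc (chr15:74669083-74672570), which regulates glutamate receptors at synapses, had 1308, 1141 and 1485 at 8 h, against 5497, 4938 and 4333 at 3 h and 692, 790.1 and 888 with vehicle (log2FC -1.91, SE 0.12, adjusted p = 3.34e-05). Sgk1 (chr10:21882184-21999903), a kinase that regulates ion channels and transporters, had 1233, 1219 and 1295 at 8 h, against 2772, 2880 and 2593 at 3 h and 244, 264 and 302 with vehicle (log2FC -1.14, SE 0.05, adjusted p = 1.46e-12). Both fell with no overlap between the times, yet Sgk1 was still 2.20 above vehicle on the log2 scale at 8 h and Arc 0.72. Homer1, a scaffold of metabotropic glutamate receptors, fell by 0.59 (SE 0.06, adjusted p = 3.69e-07), and Gadd45g, a stress and growth arrest gene, by 1.10 (SE 0.09, adjusted p = 1.24e-08). Of the members that were higher, Vgf and Rasgrp1 changed by 2-fold or more. Vgf, which encodes a precursor of secreted neuropeptides, was at 5421, 4540 and 4722 at 8 h, against 2799, 2085 and 1935 at 3 h and 708, 552 and 580.2 with vehicle, and so rose further by 1.11 (SE 0.16, adjusted p = 0.00753). Rasgrp1, a diacylglycerol-responsive activator of RAS, was at 1349, 1315 and 1238 at 8 h, against 619, 594 and 614 at 3 h and 2391, 2520 and 2317 with vehicle (log2FC 1.09, SE 0.06, adjusted p = 1.49e-11), so it rose toward a vehicle level that it had not reached. Nptx1, a secreted synaptic pentraxin, was held at 188, 205 and 212 at 8 h and 183, 188 and 181 at 3 h, above 44.9, 47.5 and 38.4 with vehicle.

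**Figure D3:**
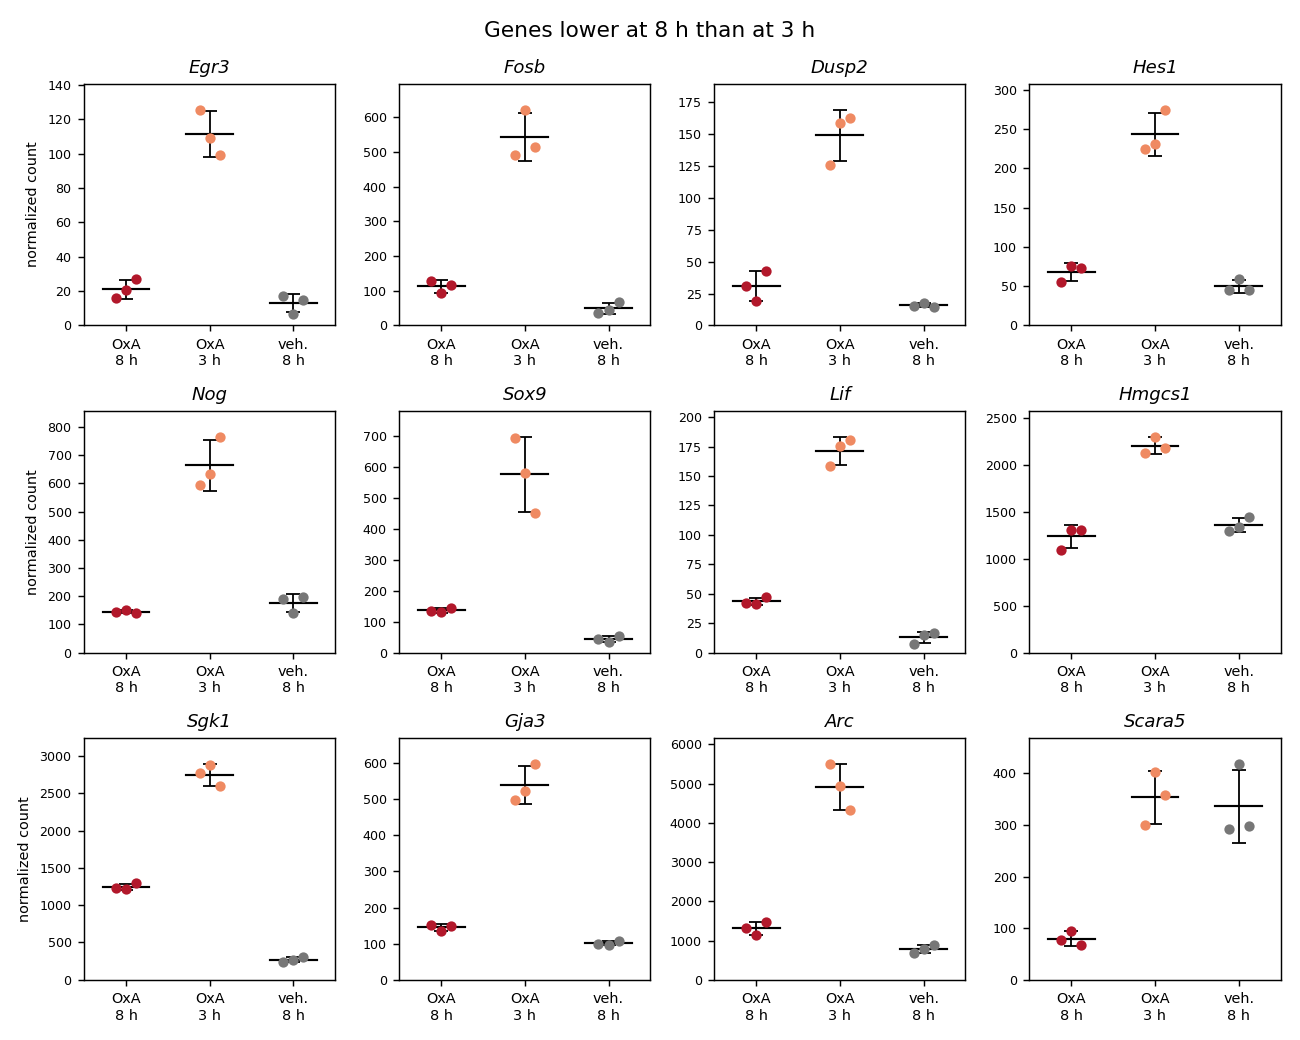
Normalized counts (vertical axes from 0) of 12 genes that were lower at OxA 8 h than at OxA 3 h, with 1 point per culture and the mean ± SD of 3 cultures, for OxA 8 h, OxA 3 h and vehicle 8 h from left to right. In every panel the 3 points at 8 h lie below the 3 points at 3 h. Nog and Hmgcs1 were not called against vehicle at 8 h, Sgk1 remained above it and Scara5 was below it.

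In the list of ID, HES and HEY repressors, 9 of 11 members were lower and 0 higher, with a median log2FC of -0.81, and only Hes6 and Hey2 were not called. Hes1 (chr16:30064384-30067796), a target of Notch, had 54.8, 75.5 and 72.7 at 8 h, against 224, 231 and 275 at 3 h and 44.9, 59.3 and 45.3 with vehicle (log2FC -1.86, SE 0.14, adjusted p = 2.98e-09). Id3, an inhibitor of basic helix-loop-helix factors and a target of BMP signalling, had 348, 284 and 298 at 8 h, against 639, 757 and 789.5 at 3 h and 283, 253 and 320.2 with vehicle (log2FC -1.23, SE 0.09, adjusted p = 1.90e-09). Both genes overlapped vehicle at 8 h. Id1, Id2 and Id4 fell by 0.83, 1.00 and 1.15 (adjusted p = 0.00476, 1.03e-08 and 2.17e-05), and Id2 was called below vehicle at 8 h, by a log2FC of -0.31.

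In the list of BMP, TGF-beta and Notch genes, 10 of 17 members were lower and 1 was higher. Nog (chr11:89300638-89302332), a secreted antagonist of BMPs, had 143, 151 and 141 at 8 h, against 594, 632 and 766 at 3 h and 190, 139 and 199 with vehicle. It fell by 2.20 (SE 0.10, adjusted p = 1.69e-12), and its cultures at 8 h overlapped those of vehicle. Smad9, a SMAD of the BMP branch, fell by 1.38 (SE 0.07, adjusted p = 5.41e-12) and the BMP type I receptor gene Acvr1 by 1.37 (SE 0.06, adjusted p = 1.98e-12). The ligand gene Bmp2 was the member that rose, with 299, 356 and 340.2 at 8 h, against 248, 238 and 239 at 3 h and 630.1, 638 and 547 with vehicle (log2FC 0.45, SE 0.09, adjusted p = 8.58e-04), and it remained below vehicle at both times. The Notch ligand gene Jag1 was held at 11640, 10830 and 11740 at 8 h and 11810, 12140 and 12000 at 3 h, above 7146, 6384 and 7308 with vehicle.

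Of 16 genes of the IL-6 family and JAK-STAT pathway, 8 were lower and 1 higher, and 5 were lower without 8 h culture 2. Lif (chr11:4257557-4272514), an IL-6 family cytokine, had 42.4, 41.3 and 47.0 at 8 h, against 158, 176 and 181 at 3 h and 7.64, 14.8 and 16.8 with vehicle, a fall of 1.99 (SE 0.15, adjusted p = 2.60e-09). Socs3, an inhibitor of JAK kinases, fell by 0.80 (SE 0.07, adjusted p = 2.93e-08), whereas the receptor gene Osmr was held at 288, 267 and 216 at 8 h and 293, 237 and 222 at 3 h, against 98.3, 88.0 and 116 with vehicle. All 3 genes remained above vehicle at 8 h, by 1.73, 1.44 and 1.35. Among 10 genes of plasminogen activation, 3 were lower and 2 higher. The urokinase receptor gene Plaur fell by 0.55 (SE 0.10, adjusted p = 0.00118), while tissue plasminogen activator, Plat, rose by 0.32 (SE 0.06, adjusted p = 1.85e-04). S100a10, which binds plasminogen at the cell surface, was held at 4268, 4401 and 4339 at 8 h and 4549, 4336 and 3912 at 3 h, against 2349, 2458 and 2419 with vehicle. The fibronectin receptor subunit gene Itga5 fell by 0.98 (SE 0.07, adjusted p = 2.51e-09) and the hyaluronan receptor gene Cd44 rose by 0.47 (SE 0.05, adjusted p = 1.32e-06), and both were above vehicle at both times.

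Most genes of cholesterol synthesis and uptake fell. They are controlled by SREBP2, which is released when INSIG1 lets go of its partner SCAP. Of 23 tested, 16 were lower at 8 h and 0 were higher, with a median log2FC of -0.55. Insig1 (chr5:28071363-28078662) had 816, 843 and 855 at 8 h, against 2453, 2299 and 2228 at 3 h and 636, 749 and 681 with vehicle (log2FC -1.48, SE 0.05, adjusted p = 5.41e-14). Cyp51, which removes the methyl group of lanosterol, had 1703, 1706 and 1783 at 8 h, against 4072, 3699 and 3707 at 3 h and 1264, 1248 and 1208 with vehicle (log2FC -1.15, SE 0.05, adjusted p = 8.71e-13). Both remained a little above vehicle, whereas Hmgcs1, the synthase of the pathway's first committed intermediate, had 1098, 1310 and 1311 at 8 h, against 2126, 2301 and 2185 at 3 h and 1294, 1343 and 1445 with vehicle (log2FC -0.83, SE 0.06, adjusted p = 2.60e-09) and overlapped vehicle. Mvk, the kinase of mevalonate, was held at 316, 323 and 317 at 8 h and 342, 315 and 297 at 3 h and was called below vehicle at both times. Against vehicle, 15 of 23 members were higher at 3 h and 7 at 8 h. Genes of fatty acid synthesis and desaturation moved less, with 6 of 19 lower, 3 higher and 15 held, and 1 higher without 8 h culture 1, 8 h culture 3 or 3 h culture 3.

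The Hmgcs1 promoter held the only match among 16 list members in the promoter table to a sterol regulatory element, tcacnccac, which 1.23% of all genes tested held, and capitals mark it below.
Hmgcs1, chr13:119690174-119690262, plus strand: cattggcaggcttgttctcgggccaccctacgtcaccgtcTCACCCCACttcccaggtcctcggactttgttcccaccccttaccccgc

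Of 13 glucocorticoid- and serum-responsive genes, 8 were lower and 1 higher, with a median log2FC of -0.64. Tsc22d3, the glucocorticoid-induced leucine zipper gene, had 482, 467 and 489 at 8 h, against 1098, 1014 and 1017 at 3 h and 698, 751 and 599 with vehicle (log2FC -1.12, SE 0.06, adjusted p = 2.93e-11). Its cultures at 8 h lay below every vehicle culture and those at 3 h above every one. Zbtb16, a zinc finger repressor, was at 227, 262 and 238 at 8 h, against 160.4, 166 and 160.4 at 3 h and 359.9, 340.2 and 339.9 with vehicle (log2FC 0.58, SE 0.11, adjusted p = 2.54e-04). The glucocorticoid receptor gene Nr3c1 was held at 4982, 5368 and 5680 at 8 h and 5370, 5720 and 5505 at 3 h. Of 22 clock genes, 11 were lower and 1 higher: Per2 fell by 0.64 (SE 0.11, adjusted p = 9.82e-05), Bhlhe40 by 0.81 (SE 0.09, adjusted p = 1.94e-06) and Noct, which encodes nocturnin, by 0.92 (SE 0.05, adjusted p = 4.99e-12). Npas2, a partner of BMAL1, rose by 0.58 (SE 0.07, adjusted p = 5.04e-06), with 635, 628 and 616 at 8 h, against 431, 449 and 378 at 3 h and 309, 287 and 359.6 with vehicle. Per3 and Dbp were held below vehicle, and Per3 was at 540.1, 565 and 505 at 8 h and 481, 535 and 530.1 at 3 h, against 809, 946 and 799 with vehicle.

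Some excitability genes followed a different course, not called against vehicle at 3 h and called below it at 8 h. Of 24 potassium channel genes tested, 13 were lower and 2 higher at 8 h, with a median log2FC of -0.37. Other courses were as common in this list: against vehicle, 9 of 26 were higher and 2 lower at 3 h, and 5 of 25 were higher and 5 lower at 8 h. Kcnma1, the pore of the calcium-activated BK channel, had 207, 211 and 225 at 8 h, against 354, 449 and 446 at 3 h and 359.9, 431 and 374 with vehicle (log2FC -0.97, SE 0.10, adjusted p = 2.41e-07). The 3 h cultures overlapped vehicle and the 8 h cultures lay below all 6 others. Kcnf1, a silent subunit that modifies other channels, was instead above vehicle at both times, with 88.4, 71.9 and 82.8 at 8 h, against 155, 186 and 166 at 3 h and 43.0, 29.7 and 50.2 with vehicle (log2FC -1.06, SE 0.14, adjusted p = 5.23e-06), and Kcnk3, a two-pore leak channel gene, fell by 0.63 (SE 0.09, adjusted p = 2.62e-05). Kcnc4 had the lowest log2FC of the list, -2.35 (SE 0.31, adjusted p = 6.55e-06), from low counts of 6.19, 8.08 and 8.95 at 8 h and 35.9, 36.0 and 44.9 at 3 h. Of 21 sodium and calcium channel genes, 7 were lower and 1 higher. Against vehicle, 7 of 22 were already lower at 3 h and 11 of 22 at 8 h, and 0 were higher at either time. The T-type calcium channel genes Cacna1g and Cacna1h fell by 0.80 and 0.46 (adjusted p = 4.61e-04 and 1.08e-05), and both were called below vehicle only at 8 h. The difference between the 2 calls against vehicle is the contrast of 8 h with 3 h itself.

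Single genes of GABA synthesis and glutamate receptors had this course. Of 23 genes of glutamate and GABA receptors and their scaffolds, 6 were lower and 2 higher. Gad1, which makes GABA from glutamate, had 211, 217 and 249.6 at 8 h, against 371, 479.6 and 517 at 3 h and 397, 503 and 478 with vehicle (log2FC -1.02, SE 0.11, adjusted p = 8.92e-07). The kainate receptor subunit gene Grik2 had 134, 155 and 181 at 8 h, against 254, 297 and 274 at 3 h and 285, 275 and 254 with vehicle (log2FC -0.82, SE 0.12, adjusted p = 1.41e-05), and the scaffold gene Shank2 fell by 0.61 (SE 0.09, adjusted p = 1.41e-05). In all 3 the 8 h cultures lay below every culture of the other groups. Gnrh1, the peptide by which GT1-7 cells are known, had 13110, 12250 and 13180 at 8 h, against 17620, 16960 and 16040 at 3 h and 17070, 16840 and 14880 with vehicle. It fell by 0.40 (SE 0.05, adjusted p = 1.43e-06) and was called below vehicle at 8 h, by -0.35, but not at 3 h. Scara5 (chr14:65666403-65764826), a receptor for ferritin, had the steepest fall of this kind, with 76.9, 95.2 and 67.2 at 8 h, against 301, 402 and 358 at 3 h and 292, 418 and 298 with vehicle (log2FC -2.14, SE 0.13, adjusted p = 1.96e-10). Prrt4 fell by 1.998 (SE 0.20, adjusted p = 1.74e-07) along the same course, and Robo1, an axon guidance receptor gene, by 0.73 (SE 0.08, adjusted p = 8.07e-07). Of 47 axon guidance genes, 15 were lower and 8 higher.

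The remaining largest falls were of varied function. Sox9 (chr11:112782224-112787760), a transcription factor of glial and skeletal development, had 134, 131 and 144 at 8 h, against 697, 582 and 453 at 3 h and 44.9, 34.6 and 52.2 with vehicle (log2FC -2.08, SE 0.14, adjusted p = 2.75e-07). Gja3, a connexin gene of gap junctions, had 151, 134 and 150 at 8 h, against 497, 522 and 598 at 3 h and 100.2, 96.9 and 106 with vehicle (log2FC -1.90, SE 0.10, adjusted p = 5.37e-12). Neither gene overlapped between any of the 3 groups. Tec, a non-receptor tyrosine kinase gene, fell by 1.93 (SE 0.15, adjusted p = 2.66e-09), Ube2ql1, a ubiquitin-conjugating enzyme-like gene, by 2.09 (SE 0.11, adjusted p = 6.90e-12), Glis1, a Krüppel-like zinc finger gene, by 1.91 (SE 0.17, adjusted p = 2.13e-08), and Dok7, an activator of the muscle receptor kinase MuSK, by 1.70 (SE 0.11, adjusted p = 2.55e-06). Flnc, an actin cross-linker, fell by 1.78 (SE 0.12, adjusted p = 3.48e-10). Cldn4, a tight junction gene, was at 5.30, 4.49 and 4.48 at 8 h, against 46.0, 40.3 and 44.9 at 3 h and 0.955, 1.98 and 0.985 with vehicle, so its log2FC of -3.20 (SE 0.32, adjusted p = 2.01e-07) rested on few counts. Runx2, a factor of the Runt family, fell by 1.46 (SE 0.07, adjusted p = 2.72e-12) and Runx1 by 0.63 (SE 0.05, adjusted p = 9.63e-09), with Runx1 at 1352, 1446 and 1427 at 8 h, against 2271, 2176 and 2078 at 3 h and 293, 353 and 388 with vehicle. Runx1t1, which encodes a corepressor partner in leukaemia fusions, rose by 0.63 (SE 0.17, adjusted p = 0.00701) and was below vehicle at both times.

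Stress, redox and glucose genes fell in part. Srxn1, which restores oxidized peroxiredoxins, had 9023, 8163 and 8222 at 8 h, against 24190, 22620 and 20240 at 3 h and 3900, 4010 and 3975 with vehicle (log2FC -1.40, SE 0.06, adjusted p = 5.37e-12). Of the 20 NRF2 targets and redox genes, 7 were lower, 1 was higher and 17 were held. The angiogenic factor gene Vegfa had 1795, 1519 and 1665 at 8 h, against 3884, 3029 and 3046 at 3 h and 661, 723 and 618 with vehicle (log2FC -1.001, SE 0.11, adjusted p = 3.25e-04). Pfkfb3, which makes the activator of phosphofructokinase, fell by 1.01 (SE 0.10, adjusted p = 1.78e-07) and hexokinase 2, Hk2, by 0.63 (SE 0.06, adjusted p = 1.64e-07). The glycolytic enzyme genes Eno1, Ldha and Pgk1 went the other way by small amounts, higher by 0.27, 0.25 and 0.23 (adjusted p = 2.58e-04, 0.00350 and 0.00253). They were the largest named rises of a list that did not move as a whole. Of 28 glycolysis and hypoxia genes tested, 5 were higher, 4 lower and 20 held, with a median log2FC of 0.01. Among 28 ATF4 targets and tRNA synthetases, 4 were lower and 7 higher. Chac1, a glutathione-degrading enzyme gene of the stress response, fell by 1.45 (SE 0.18, adjusted p = 0.00125), while Psat1 of serine synthesis rose by 0.49 (SE 0.09, adjusted p = 0.00200). Without culture 1 of the 8 h group the counts were 8 lower and 4 higher, and without culture 2 of the 3 h group 4 were higher.

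Some chaperones of the endoplasmic reticulum, lysosomal genes and genes of DNA replication had small falls. Of 22 chaperone and unfolded protein response genes, 9 were lower and 1 higher, with Dnajb9 and Herpud1 lower by 0.64 and 0.61 (adjusted p = 1.08e-06 and 1.18e-06) and the sensor gene Atf6 higher by 0.42 (SE 0.05, adjusted p = 1.01e-06). Of 23 lysosome and autophagy genes, 11 were lower, 2 higher and all 23 held, with the autophagosome gene Map1lc3b lower by 0.43 (SE 0.06, adjusted p = 6.10e-06). Of 38 genes of the G1/S transition and DNA replication, 19 were lower and 1 was higher, with a median log2FC of -0.14, and 34 were held. Cdt1, which licenses replication origins, had 1741, 1699 and 1795 at 8 h, against 2855, 2552 and 2260 at 3 h and 1550, 1656 and 1536 with vehicle (log2FC -0.55, SE 0.07, adjusted p = 5.15e-06). Cyclin E1, Ccne1, fell by 0.50 (SE 0.06, adjusted p = 5.36e-06) and E2f8, a late repressor of the E2F program, by 0.52 (SE 0.06, adjusted p = 1.60e-06), whereas thymidine kinase, Tk1, rose by 0.29 (SE 0.06, adjusted p = 6.02e-04). Against vehicle, 17 of 38 were higher at 3 h and 3 at 8 h. In bulk cultures fewer cells in a phase and less RNA per cell cannot be told apart.

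Regulators of transcription elongation and splicing held 1 steep fall and several small ones. The super elongation complex and P-TEFb release paused RNA polymerase, and the 7SK particle holds P-TEFb inactive. Of 17 of these genes, 7 were lower, 2 higher and 13 held. Aff1, a scaffold of the super elongation complex, had 5055, 4975 and 5108 at 8 h, against 11470, 11940 and 11800 at 3 h and 4507, 4397 and 4524 with vehicle (log2FC -1.22, SE 0.04, adjusted p = 4.22e-14). Mllt3, which encodes a reader protein of the same complex, had 543, 504 and 632 at 8 h, against 368, 359.7 and 365 at 3 h and 617, 566 and 614 with vehicle (log2FC 0.61, SE 0.08, adjusted p = 9.91e-06). Aff1 was thus lower and Mllt3 higher at 8 h with no overlap between the times, and both lay nearer to vehicle at 8 h than at 3 h. Hexim1, an inhibitor within the 7SK particle, fell by 0.37 (SE 0.07, adjusted p = 7.43e-04). Of 26 splicing factor genes, 24 were held, and Srsf5 had the largest fall, 0.60 (SE 0.09, adjusted p = 3.99e-04).

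Growth arrest, nutrient stress and cytoskeletal genes moved in both directions. Of 16 CDK inhibitors and p53 targets, 7 were lower and 4 higher: the kinase gene Plk2 had 397, 292 and 383 at 8 h, against 729, 574 and 590.4 at 3 h and 159, 135 and 182 with vehicle (log2FC -0.83, SE 0.12, adjusted p = 1.50e-04), while Ccng1, a cyclin gene induced by p53, rose by 0.23 (SE 0.05, adjusted p = 8.63e-04). The count of 4 higher was 2 without 8 h culture 2, 8 h culture 3, 3 h culture 1 or 3 h culture 3 and with DESeq2, and 1 without 3 h culture 2. Of the sestrins, which restrain mTORC1 when nutrients are scarce, Sesn2 fell by 0.65 (SE 0.11, adjusted p = 9.73e-04) and Sesn1 rose by 0.35 (SE 0.06, adjusted p = 7.84e-05). Of 20 genes of the actin cytoskeleton, 7 were lower and 5 higher, but 2 were higher without 8 h culture 3 or 3 h culture 3 and 3 without 3 h culture 2. Fhl2, a LIM domain cofactor gene, fell by 0.71 (SE 0.14, adjusted p = 4.63e-04), and Tagln, an actin-binding protein gene of smooth muscle, had 489, 444 and 454 at 8 h, against 319, 270.3 and 309.5 at 3 h and 274, 276 and 276 with vehicle (log2FC 0.63, SE 0.08, adjusted p = 8.32e-06). The laminin receptor subunit gene Itga7 rose by 0.41 (SE 0.05, adjusted p = 1.67e-06), among 20 integrin, laminin and syndecan genes of which 4 were lower and 5 higher. Here 3 were higher with RLE scaling, with DESeq2, without the 3 abundant RNAs mt-Rnr1, mt-Rnr2 and Rn7sk, and without 8 h culture 2, 3 h culture 2 or 3 h culture 3. Of 14 heat shock genes, 3 were lower and 3 higher: the small heat shock protein gene Hspb8 fell by 0.57 (SE 0.05, adjusted p = 5.17e-08), and the mitochondrial chaperonin genes Hspd1 and Hspe1 rose by 0.32 and 0.33 (adjusted p = 1.40e-05 and 1.38e-04).

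Transcription factors of GnRH neurons changed by small amounts, with 10 of 12 held. Six6, a homeobox factor of the GnRH lineage, had 3542, 3689 and 3622 at 8 h, against 2757, 2696 and 2962 at 3 h and 3738, 3666 and 3703 with vehicle (log2FC 0.36, SE 0.05, adjusted p = 6.69e-06). Lhx2, a LIM homeobox factor, had 606, 623 and 654 at 8 h, against 960, 866 and 797 at 3 h and 549.9, 621 and 563 with vehicle (log2FC -0.48, SE 0.07, adjusted p = 2.43e-05). In the list, 2 members were higher and 3 lower. Of 14 genes of the neuronal cytoskeleton, 5 were lower and 0 higher, and the doublecortin-like kinase gene Dclk1 fell by 0.49 (SE 0.06, adjusted p = 2.34e-06), whereas Map1b was held at 20280, 20160 and 20200 at 8 h and 19560, 20820 and 20430 at 3 h, against 17760, 16490 and 18700 with vehicle.

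Among the genes that built up, Tmem171 (chr13:98686235-98694834), a membrane protein gene, had 120.2, 79.0 and 94.0 at 8 h, against 22.4, 9.81 and 11.2 at 3 h and 2.86, 0.989 and 4.93 with vehicle, a rise of 2.77 (SE 0.26, adjusted p = 8.48e-08). Spp1 (chr5:104435118-104441050), which encodes the secreted phosphoprotein osteopontin, had 1515, 978 and 1345 at 8 h, against 395, 199.5 and 205 at 3 h and 259, 141 and 225 with vehicle, a rise of 2.27 (SE 0.34, adjusted p = 0.0116), with an adjusted p of 0.0501 and a log2FC of 2.10 without culture 3 of the 3 h group. Timp1 (chrX:20870166-20874735), an inhibitor of matrix metalloproteases, had 350.1, 222 and 228 at 8 h, against 76.3, 33.8 and 65.4 at 3 h and 17.2, 17.8 and 15.8 with vehicle, a rise of 2.19 (SE 0.29, adjusted p = 0.00103). In all 3 genes the groups at 8 h and 3 h did not overlap, and culture 1 was the highest within both groups. For Spp1 the 3 h cultures overlapped vehicle, for Timp1 they were all above it. Of 23 matrix genes, 6 were higher, 4 of them 2-fold, and 3 were lower by less, 1 of them without 8 h culture 2 and 5 with no filter on low counts. Adamts15, an extracellular protease gene, rose by 1.18 (SE 0.28, adjusted p = 0.00359) and was below vehicle at both times, with 56.6, 54.8 and 35.8 at 8 h, against 33.7, 19.6 and 13.3 at 3 h and 106, 143 and 89.7 with vehicle.

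Acsbg1, an acyl-CoA synthetase gene of the brain, had 195, 127 and 137 at 8 h, against 61.7, 28.3 and 31.7 at 3 h and 40.1, 41.5 and 34.5 with vehicle (log2FC 1.93, SE 0.25, adjusted p = 8.06e-05). Its 3 h cultures overlapped vehicle and the 8 h cultures lay above all others. The RGS proteins, which speed the switching off of G proteins, were higher for 6 of 9 members and lower for 0, with a median log2FC of 0.24. Rgs8 had 157, 124 and 141 at 8 h, against 48.2, 33.8 and 35.8 at 3 h and 43.9, 23.7 and 36.5 with vehicle (log2FC 1.84, SE 0.17, adjusted p = 7.54e-08), and Rgs6 had 78.7, 113 and 67.2 at 8 h, against 38.1, 38.2 and 32.7 at 3 h and 30.6, 26.7 and 35.5 with vehicle (log2FC 1.26, SE 0.21, adjusted p = 1.10e-04). Both were called above vehicle at 8 h and not at 3 h. Rgs3 and Rgs12 rose by 0.34 and 0.24 (adjusted p = 0.00425 and 0.00130) from below vehicle, and Rgs17 was held below it, at 1560, 1863 and 1776 at 8 h and 1402, 1674 and 1764 at 3 h, against 2273, 2495 and 2383 with vehicle.

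Most genes of the receptor's own signalling chain were held, though they were called about as often as all genes tested. Of 33 genes of orexin receptor signalling, 4 were higher, 5 lower (3 without 8 h culture 2) and 29 held. Over all genes tested, 13.7% were higher, 14.3% lower and 66.4% held. Besides Rasgrp1, the inhibitory G protein gene Gnai1 rose by 0.51 (SE 0.07, adjusted p = 9.72e-06) and the protein kinase C gene Prkca by 0.29 (SE 0.06, adjusted p = 0.00108), while the phospholipase gene Plcb4 fell by 0.41 (SE 0.07, adjusted p = 1.07e-04). Prkca was at 1954, 1984 and 1954 at 8 h, against 1780, 1440 and 1600 at 3 h and 946, 902 and 1121 with vehicle. Plcb1 was held below vehicle, with 446, 438 and 501 at 8 h, 468, 459 and 526 at 3 h and 687, 694 and 839 with vehicle. Of 29 genes of cyclic nucleotide and CREB signalling, 8 were lower and 6 higher, among them Sik1, a CREB-inducible kinase gene that restrains CREB coactivators, which fell by 0.92 (SE 0.06, adjusted p = 5.94e-10).

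Synaptic and transmitter genes rose in a few members only, at shares near the 13.7% called higher over all genes tested. Of 10 genes of transmitter synthesis and vesicular transport, 1 was higher and 1 lower. Of the 23 glutamate and GABA receptor and scaffold genes, 2 were higher and 6 lower. Grin2a, which encodes the GluN2A subunit of NMDA receptors, had 102, 102 and 101 at 8 h, against 39.3, 48.0 and 37.8 at 3 h and 51.6, 32.6 and 64.0 with vehicle (log2FC 1.29, SE 0.17, adjusted p = 6.36e-06). Sv2b, a synaptic vesicle glycoprotein gene, had 46.9, 56.6 and 40.3 at 8 h, against 14.6, 18.5 and 11.2 at 3 h and 12.4, 17.8 and 9.85 with vehicle (log2FC 1.71, SE 0.27, adjusted p = 5.30e-05), and Slc17a6, a vesicular glutamate transporter gene, had 30.1, 32.3 and 40.3 at 8 h, against 8.97, 11.99 and 14.3 at 3 h and 10.5, 5.93 and 4.93 with vehicle (log2FC 1.52, SE 0.30, adjusted p = 5.61e-04). All 3 were called above vehicle at 8 h and not at 3 h. Of 24 genes of vesicle release, 4 were higher and 2 lower, but these counts were 2 and 0 without 8 h culture 2 and 2 and 1 with DESeq2. The lower count was 4 without 8 h culture 1 and 1 without 8 h culture 3, 3 h culture 1 or 3 h culture 3. Sv2c was held at 352, 299 and 330.1 at 8 h and 367, 295 and 271 at 3 h, against 123, 124 and 99.5 with vehicle. Among axon guidance genes, Sema3e, a secreted semaphorin, built up with 17290, 16140 and 16170 at 8 h, against 10660, 8996 and 8588 at 3 h and 5271, 4225 and 5223 with vehicle (log2FC 0.81, SE 0.07, adjusted p = 6.12e-07). Of the EGF family, betacellulin, Btc, was at 52.2, 48.5 and 38.1 at 8 h, against 16.8, 19.6 and 6.13 at 3 h and 7.64, 0 and 7.88 with vehicle (log2FC 1.73, SE 0.30, adjusted p = 1.85e-04), and heparin-binding EGF, Hbegf, was at 1307, 1108 and 1267 at 8 h, against 1587, 1395 and 1479 at 3 h and 221, 204 and 288 with vehicle, held within 1.5-fold though called lower (SE 0.06, adjusted p = 0.00216).

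**Figure D4:**
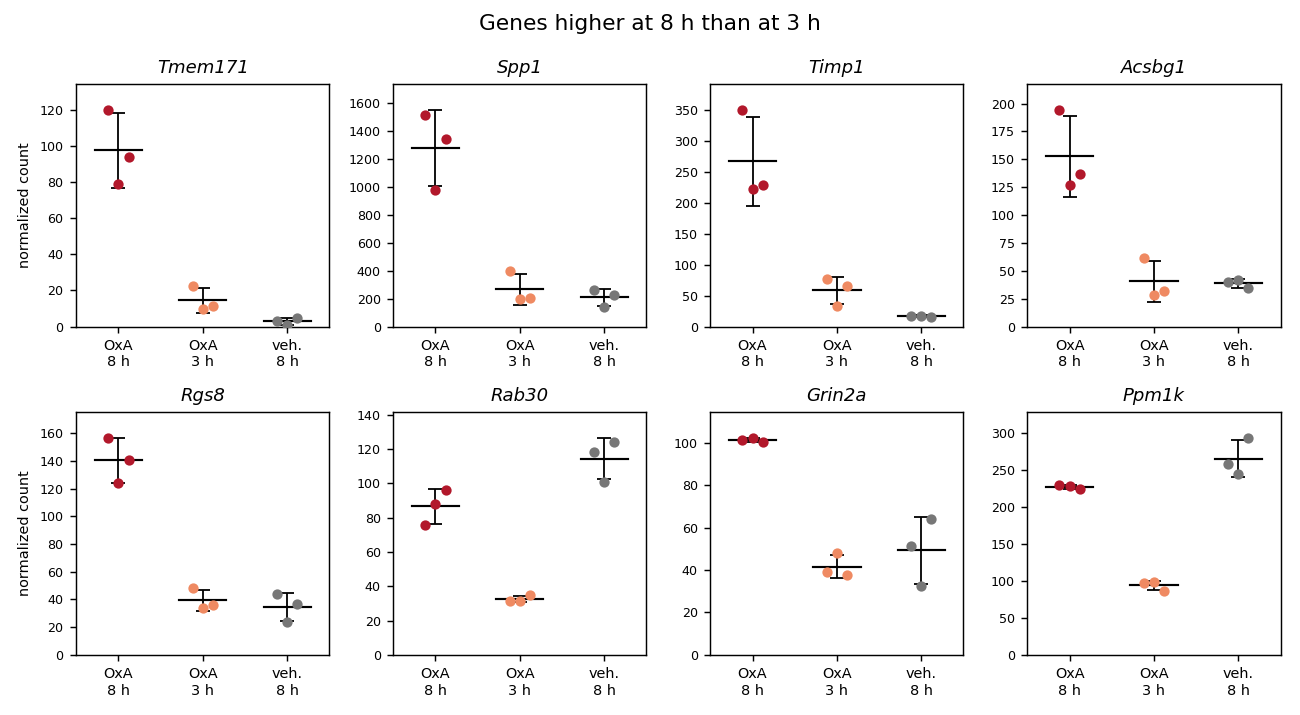
Normalized counts (vertical axes from 0) of 8 genes that were higher at OxA 8 h than at OxA 3 h, with 1 point per culture and the mean ± SD of 3 cultures, for OxA 8 h, OxA 3 h and vehicle 8 h from left to right. The 8 h points lie above the 3 h points in every panel. Rab30 and Ppm1k were below vehicle at 3 h, and the other 6 genes were above vehicle at 8 h.

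Most cytosolic ribosomal protein genes rose by small amounts. Of 50 cytosolic ribosomal protein genes tested, 35 were higher at 8 h and 0 were lower, all 50 had a positive log2FC, and 49 were held within 1.5-fold, with a median log2FC of 0.16. Rpl3 had 5482, 4965 and 5165 at 8 h, against 4340, 4115 and 4092 at 3 h and 4529, 4315 and 4196 with vehicle (log2FC 0.31, SE 0.05, adjusted p = 3.53e-05), and Rps12 had 6613, 6185 and 6281 at 8 h, against 5706, 4845 and 4967 at 3 h and 5128, 4784 and 5114 with vehicle (log2FC 0.30, SE 0.05, adjusted p = 2.76e-04). In both the 8 h cultures lay above all others and the 3 h cultures overlapped vehicle. Against vehicle, 3 of 50 were higher at 3 h and 46 at 8 h. The count of 35 depended on single cultures, and ranged from 15 to 44 when 1 culture was left out and from 28 to 42 under the other settings. It was 21 without 8 h culture 1, 23 without 8 h culture 3, 17 without 3 h culture 2 and 15 without 3 h culture 3. Ribosomal proteins have many processed copies in the mouse genome, and how reads shared with them were counted is not stated.

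Ribosome biogenesis differed in its course. Of 35 genes, 13 were higher, 4 lower and 32 held, and against vehicle 28 were higher at 3 h and 33 at 8 h. Nop2, an rRNA methyltransferase gene, was at 1501, 1419 and 1472 at 8 h and 1558, 1451 and 1311 at 3 h, against 782, 767 and 784 with vehicle, and Ddx21, a nucleolar helicase gene, at 3093, 2921 and 2984 at 8 h and 3235, 2883 and 2825 at 3 h, against 1762, 1729 and 1746 with vehicle. Both were held, with intervals of their log2FC of -0.10 to 0.15 and -0.10 to 0.12. The pseudouridine synthase subunits Dkc1 and Nhp2 rose by 0.44 and 0.45 (adjusted p = 1.68e-06 and 6.59e-05), and Nop58 fell by 0.21 (SE 0.05, adjusted p = 0.00119). All 24 translation factor genes were above vehicle at 8 h, against 17 at 3 h, and between the times 9 were higher, 2 lower and 23 held. Without 3 h culture 3, 5 were higher. Eif4e, the cap-binding protein gene, was held at 1993, 2052 and 2056 at 8 h and 2026, 2096 and 2074 at 3 h, against 1439, 1474 and 1512 with vehicle. Of 10 genes of polyamine metabolism, 3 were higher and 2 lower, with a median log2FC of -0.12. Srm rose by 0.49 (SE 0.06, adjusted p = 3.23e-06) and Odc1 by 0.19 (SE 0.04, adjusted p = 0.00200). Azin1 and Oaz1 were lower, with a log2FC of -0.32 and -0.19 (adjusted p = 1.09e-04 and 0.0108).

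Interferon-stimulated genes were below vehicle at 3 h and rose toward it by 8 h. Of 21 tested, 15 were higher at 8 h, 1 was lower and the median log2FC was 0.44. Mx2 had 546, 692 and 641 at 8 h, against 358, 340.1 and 279.9 at 3 h and 623, 631 and 705 with vehicle (log2FC 0.94, SE 0.10, adjusted p = 5.89e-07). Ifit1, an antiviral RNA-binding protein gene, had 446, 592 and 582 at 8 h, against 334, 352 and 304 at 3 h and 502, 579.5 and 660 with vehicle (log2FC 0.71, SE 0.10, adjusted p = 2.62e-05). In both the 3 h cultures lay below all others and the 8 h cultures overlapped vehicle. Against vehicle, 14 of 21 were lower at 3 h and 4 at 8 h. Usp18, which removes ISG15 from proteins, remained below vehicle at 8 h, with 739, 814 and 804 at 8 h, against 618, 558 and 558 at 3 h and 916, 965 and 896 with vehicle. Rab30, a small GTPase gene of the Golgi, had 76.0, 88.0 and 96.3 at 8 h, against 31.4, 31.6 and 34.7 at 3 h and 118, 101 and 124 with vehicle (log2FC 1.40, SE 0.19, adjusted p = 7.70e-06), and Ppm1k, the phosphatase that activates breakdown of branched-chain amino acids, had 229.8, 228 and 224 at 8 h, against 97.6, 98.1 and 86.8 at 3 h and 259, 244 and 294 with vehicle (log2FC 1.27, SE 0.12, adjusted p = 5.27e-08). Xrcc6bp1 rose by 1.26 (SE 0.21, adjusted p = 8.72e-05) along the same course. Rab30 remained below every vehicle culture at 8 h, and so did Ppm1k.

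Housekeeping complexes held. All 31 proteasome subunit genes were held, with 2 lower and 0 higher, and a range of log2FC of -0.16 to 0.05. All 35 nuclear genes of oxidative phosphorylation were held, with 2 higher and 0 lower, and so were the 7 of 13 mitochondrially encoded protein genes that had enough counts. Among these, mt-Nd4 was at 4785, 4737 and 4237 at 8 h and 4744, 4482 and 4575 at 3 h. All 36 genes of G2/M and mitosis were held, 5 of them called higher (3 without 8 h culture 3, 3 h culture 2 or 3 h culture 3) and 4 lower, and 14 were below vehicle at 8 h and 15 at 3 h. Mki67, the proliferation marker, had 30060, 28640 and 28930 at 8 h, against 34870, 31930 and 33100 at 3 h and 35220, 32990 and 33640 with vehicle (log2FC -0.19, SE 0.04, adjusted p = 0.00270), and the checkpoint kinase gene Bub1b rose by 0.38 (SE 0.05, adjusted p = 5.68e-06) toward vehicle. Of 7 reference genes, 0 were called and 6 were held, the exception being Gusb, whose low counts gave an interval of -0.19 to 0.93. Actb was at 72150, 65310 and 71610 at 8 h and 71910, 67930 and 67880 at 3 h, and was called above vehicle at both times by 0.21 and 0.21.

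Some genes called on the same side of vehicle at both times also held. Hmga2, an architectural chromatin protein of growing cells, was at 87.5, 72.8 and 73.9 at 8 h and 80.8, 71.9 and 65.4 at 3 h, against 4.77, 5.93 and 2.96 with vehicle, with an interval of its log2FC between the times of -0.23 to 0.45. Its relative Hmga1 was at 321, 253 and 269 at 8 h and 317, 337 and 265 at 3 h, against 70.7, 73.2 and 87.7 with vehicle. The times overlapped in both genes and vehicle lay apart from both times. The cystine transporter gene Slc7a11 was held at 227, 183 and 216 at 8 h and 283, 184 and 191 at 3 h, against 108, 94.9 and 85.7 with vehicle, and Tnfaip3, an inhibitor of NF-kappaB signalling, at 86.6, 72.8 and 118 at 8 h and 99.8, 118 and 84.8 at 3 h, against 39.1, 34.6 and 65.0 with vehicle. Held below vehicle was the pacemaker channel gene Hcn4, with 551, 535 and 557 at 8 h and 482, 522 and 540.3 at 3 h, against 866, 1043 and 885 with vehicle.

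**Figure D5:**
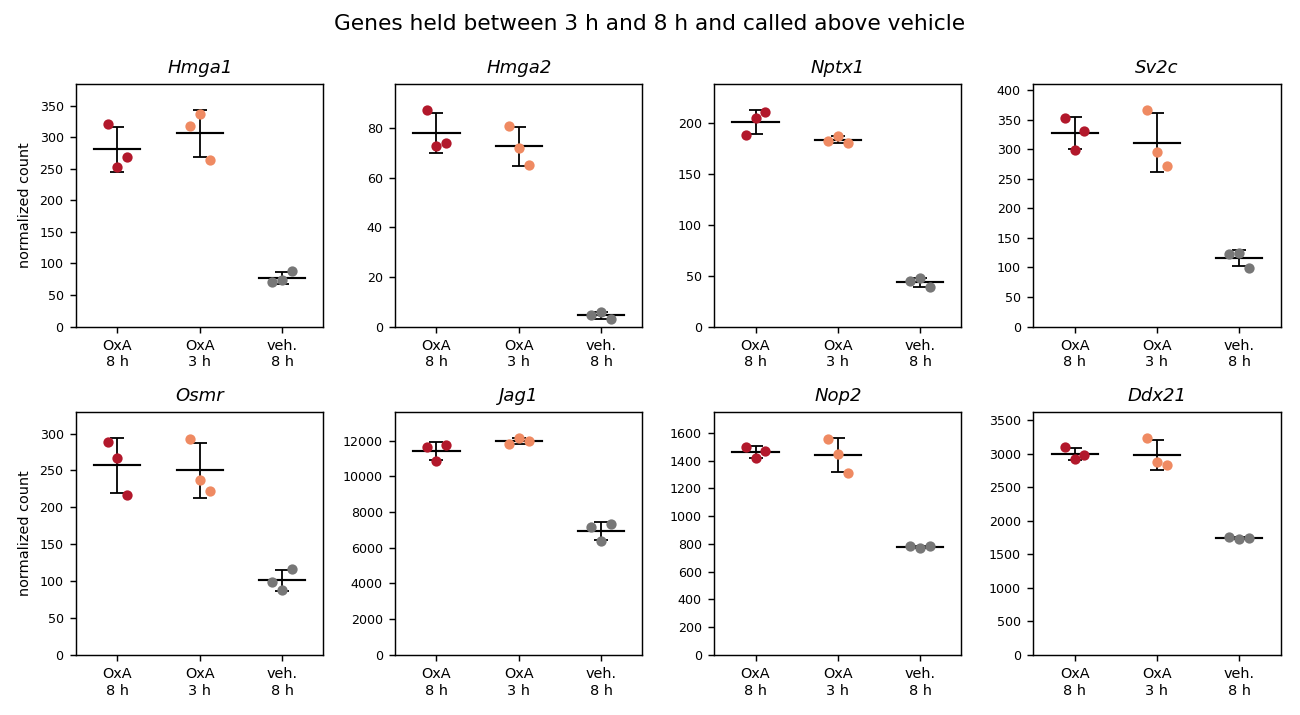
Normalized counts (vertical axes from 0) of 8 genes held within 1.5-fold between the times and called above vehicle at both, with 1 point per culture and the mean ± SD of 3 cultures, for OxA 8 h, OxA 3 h and vehicle 8 h from left to right. The 8 h and 3 h points lie close together in every panel, and the vehicle points lie below both.

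At the 2 times, 106 genes were called on opposite sides of vehicle, 105 of them with a mean of at least 50 counts. The 5 of these with the largest difference all lay above vehicle at 3 h and below it at 8 h. Ighm, an immunoglobulin heavy chain gene, had 119, 125 and 116 at 8 h, against 286, 314 and 339 at 3 h and 233, 227 and 266 with vehicle (log2FC -1.39, SE 0.11, adjusted p = 4.23e-09). Islr, a leucine-rich repeat protein gene, had 87.5, 85.3 and 112 at 8 h, against 251, 249 and 222 at 3 h and 188, 198 and 192 with vehicle (log2FC -1.35, SE 0.13, adjusted p = 6.26e-08). The forkhead factor gene Foxo6 had 225, 222 and 224 at 8 h, against 507, 464 and 482 at 3 h and 267, 298 and 261 with vehicle (log2FC -1.12, SE 0.08, adjusted p = 1.85e-09). In each the 3 groups did not overlap. The others were Tsc22d3, described above, and the unannotated transcript Gm42588, which fell by 1.21 (SE 0.19, adjusted p = 5.15e-05). The strand setting of the counting is not stated, so reads of overlapping or antisense genes, which are common among such transcripts, cannot be assigned to one of them with certainty.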

How the data were processed

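RNA-Seq was performed on 9 cultures of GT1-7-OX1 cells: 200 nM OxA for 8 h, 200 nM OxA for 3 h and vehicle for 8 h, 3 cultures each, grouped by the sample labels. Libraries were made from total RNA depleted of ribosomal RNA, with a kit that keeps strand. The authors trimmed reads with Trimmomatic, aligned them to mm10 with STAR (2.5.2a), counted them per gene with HTSeq (0.6.0) and deposited raw counts, which were used for all tests. The annotation and the strand setting of the counting are not given in the sources used here. The TPM values that the authors deposited served only for cell type markers and their sums. The deposited normalized counts were not used, nor were the authors' own comparisons, which hold fold changes and p-values.

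Counts were tested with edgeR (4.0.16, R 4.3.3) by the robust quasi-likelihood F test, two-sided, with TMM scaling, filterByExpr and Benjamini-Hochberg adjustment over all genes tested. Each comparison was fitted on its 2 groups of 3 cultures alone, with calls at an adjusted p under 0.05. Intervals are 95% intervals of the unshrunk log2FC. The script was tested on simulated data with known changes. Counts per culture are printed as counts scaled to the mean TMM library size. Gene lists, motifs and the genes compared were chosen with earlier results of these data known. Genes were named by rule: the 10 largest falls and rises among called genes without overlap and a mean of at least 50 counts, for each list up to 3 falls, 3 rises (mean of at least 20) and 2 held genes farthest from vehicle, the 5 largest differences among genes on opposite sides of vehicle, genes the study named, reference genes and cell type markers. Genes outside it are given as members of a family beside those. Positions are from GENCODE M21 (GRCm38) and promoters from RefSeq (GRCm38.p6). Alternatives were other scalings and filters, DESeq2 (1.42.0), a fit of all 9 cultures, a replicate term, removal of 3 abundant RNAs and leaving out each culture. Totals ran between 16217786 and 20445364 counts per culture, which leaves genes of few counts limited by counting error. A few genes are not reported here.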

Additional observations from a re-analysis of the deposited data

How the results depend on the processing

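No gene called between 8 h and 3 h was called in the opposite direction under any of the 15 alternative settings. Against 4277 genes called, other scalings gave 4254 (RLE) and 4405 (upper quartile), no filter 4387, a filter at 50 counts in 3 samples 4134, all 9 cultures in 1 fit 4477, removal of mt-Rnr1, mt-Rnr2 and Rn7sk 4276, and DESeq2 3451 without and 3455 with a fold change prior. Upper-quartile scaling gave 57.2% of called genes as higher at 8 h, against 49.0%. Counts of 2-fold changes depended more on the setting. Against 103 higher and 182 lower, the filter at 50 counts left 34 and 94, with fewer genes tested, DESeq2 without a prior called 61 as higher, and with a prior, which shrinks fold changes by construction, 6 higher and 66 lower. With a narrower bound, a difference of 25% upward or its inverse downward in place of 1.5-fold, 5834 genes were held in place of 10150, and with 2-fold 13430.

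Leaving out each culture in turn gave 3371 to 4166 genes called, 1523 to 2080 higher, 1792 to 2086 lower, 92 to 119 higher 2-fold, 180 to 202 lower 2-fold and 9602 to 9810 held. Against vehicle these ranges were 3376 to 4260 at 8 h and 5016 to 5776 at 3 h. The labels number the cultures 1 to 3 in each group, and a shared number may mark 1 run of the experiment. The main test did not take these numbers as pairs. Correlations of deviations between cultures of the same number were 0.162, 0.0492 and 0.0221, the first being the highest of any pair. Cultures 2 and 3 at 8 h each correlated best with another number, so these correlations do not settle whether cultures should be paired. With a replicate block 5348 genes were called between the times, 10377 were held, and 5558 and 6500 genes were called against vehicle at 8 h and 3 h. Depth limits genes of few counts, and the flasks of 1 pool limit what the p-values cover.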

Other observations

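Gene families grouped by symbol alone, after the data were seen, held a few patterns that the lists did not cover, and they are given as counts beside 13.7% higher and 14.3% lower over all genes tested. Zinc finger genes named Zfp with a number, most of which encode DNA-binding proteins, had 75 of 312 members higher at 8 h than at 3 h (24.0%) and 27 lower (8.65%), with a median log2FC of 0.11. Against vehicle, 26 were lower and 30 higher at 8 h, and 109 were lower and 43 higher at 3 h. Zfp775 had a mean of 71.8 normalized counts at 8 h, 35.4 at 3 h and 91.4 with vehicle (log2FC 1.02, SE 0.19, adjusted p = 2.92e-04 in edgeR's test). Tripartite motif genes, which encode ubiquitin ligases, some of them antiviral, had 15 of 43 higher and 7 lower. Among them Trim34a averaged 157 at 8 h, 83.7 at 3 h and 169.6 with vehicle (log2FC 0.91, SE 0.16, adjusted p = 1.79e-04), and Trim9, which is known in neurons, averaged 328 at 8 h, 591 at 3 h and 288 with vehicle (log2FC -0.85, SE 0.07, adjusted p = 2.32e-08).

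Wnt ligands and their Frizzled receptors had 10 of 18 members lower at 8 h and 0 higher, with a median log2FC of -0.35, and 7 were below vehicle at 8 h and 3 at 3 h. The receptor gene Fzd6 averaged 561 at 8 h, 1023 at 3 h and 425 with vehicle (log2FC -0.87, SE 0.07, adjusted p = 4.85e-09). Forkhead factors had 10 of 22 lower and 1 higher. Foxo1, which is restrained by insulin signalling, averaged 302 at 8 h, 436 at 3 h and 363 with vehicle (log2FC -0.53, SE 0.08, adjusted p = 4.26e-05). The zinc exporter gene Slc30a1 averaged 926 at 8 h, 1880.2 at 3 h and 726 with vehicle (log2FC -1.03, SE 0.07, adjusted p = 5.25e-09). Mitochondrial ribosomal protein genes had 15 of 76 higher, 1 lower and 74 held within 1.5-fold, with a median log2FC of 0.11. Of 65 genes of histones and histone variants, 0 were higher, 4 were lower and 58 were held.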
